A study of Homo sapiens with 3 samples.

Results

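The X-linked gene CLCN5 carries a group of 8 miRNA hairpins in 1 of its introns: hsa-mir-532, hsa-mir-188, hsa-mir-500a, hsa-mir-362, hsa-mir-501, hsa-mir-500b, hsa-mir-660 and hsa-mir-502. They were taken by name from the 1873 endogenous hairpins in the count table, and with both arms they give 16 of its 2580 endogenous mature miRNAs. Small RNA was sequenced from 3 lines of Flp-In T-REx 293 cells, which derive from the human embryonic kidney line HEK293 and carry a tetracycline repressor, so that a gene behind a matching promoter responds to doxycycline. Each line had received a lentiviral vector in which a doxycycline-inducible cytomegalovirus promoter drove GFP, with an intron in the 5′ leader of the transcript. That intron held a synthetic miR-1 hairpin in the first line and a synthetic miR-122 hairpin in the second line, and no hairpin in the empty vector control. All 3 lines, the control included, were selected in 1 mg/mL Geneticin for 6 days and then given 1 ug/mL doxycycline for 7 days, and each library was made from 1000 ng of total RNA.

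Each group held 1 library, so no value below has a replicate check and no test between conditions was possible. The intervals given are 95% intervals for counting error only, since the reads carried no molecular identifiers and independent cultures of 1 condition were not compared. In these bulk samples, fewer cells that make a miRNA cannot be told apart from fewer copies per cell.

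A miRNA hairpin is cut out of a longer primary transcript by the nuclear enzyme Drosha and then trimmed by Dicer to a short duplex. One strand of the duplex, from either the 5′ arm (5p) or the 3′ arm (3p), is kept by an Argonaute protein as the guide, and the other strand is mostly degraded. The guide finds mRNAs mainly by its seed, bases 2 to 8 from the 5′ end, and Argonaute binding usually lowers their stability and translation. Intronic hairpins can be transcribed together with their host gene, and neighbouring hairpins can share 1 primary transcript, yet each hairpin is processed and each mature strand is turned over on its own. CLCN5 encodes ClC-5, a chloride/proton exchanger of endosomes that is needed for protein uptake in the proximal tubule of the kidney, and the gene is mutated in Dent disease.

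On GRCh37, CLCN5 lies on the plus strand at chrX:49687206-49863892 (GENCODE release 44 lifted to that build). The 8 hairpins span 11.5 kb on the same strand within the intron between exons 3 and 4 of transcript CLCN5-202, an intron of 117.0 kb at chrX:49689925-49806924. Each hairpin lies in an intron of 3 CLCN5 transcripts, and none overlaps a CLCN5 exon. The first pair is MIR532 (chrX:49767754-49767844) and MIR188 (chrX:49768109-49768194), with 264 bases between them. After a gap of 4844 bases come MIR500A (chrX:49773039-49773122), MIR362 (chrX:49773572-49773636), MIR501 (chrX:49774330-49774413) and MIR500B (chrX:49775279-49775357), with gaps of 449, 693 and 865 bases between them. MIR660 (chrX:49777849-49777945) follows after 2491 bases, and MIR502 (chrX:49779206-49779291) after a further 1260 bases.

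Mature sequences were found for 15 of the 16 members in RefSeq (the table made with GRCh38.p14, used for sequence only), the exception being miR-660-5p. The mature strands of 5 hairpins are shown first, because their likeness limits how their reads can be told apart. Lines run 5′ to 3′, with the seed in capitals.
hsa-miR-500a-5p: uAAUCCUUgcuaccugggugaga
hsa-miR-500b-5p: aAUCCUUGcuaccugggu
hsa-miR-362-5p: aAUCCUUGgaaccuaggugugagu
hsa-miR-501-5p: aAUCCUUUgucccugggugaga
hsa-miR-502-5p: aUCCUUGCuaucugggugcua
hsa-miR-500a-3p: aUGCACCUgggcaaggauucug
hsa-miR-500b-3p: gCACCCAGgcaaggauucug
hsa-miR-362-3p: aACACACCuauucaaggauuca
hsa-miR-501-3p: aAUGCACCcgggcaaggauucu
hsa-miR-502-3p: aAUGCACCugggcaaggauuca
The pair at the start of the cluster, hsa-mir-532 and hsa-mir-188, gave the strands below, which are shown because miR-532-5p was the most abundant member and miR-188-5p one of the scarcer major strands.
hsa-miR-532-5p: cAUGCCUUgaguguaggaccgu
hsa-miR-188-5p: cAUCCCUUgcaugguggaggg
hsa-miR-532-3p: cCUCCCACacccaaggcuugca
hsa-miR-188-3p: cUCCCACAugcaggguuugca

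The 6 letters AUCCUU stood in all 5 of the 5p strands of hsa-mir-500a, hsa-mir-500b, hsa-mir-362, hsa-mir-501 and hsa-mir-502, and their reverse complement AAGGAU stood in all 5 of the matching 3p strands. Among 1166 other endogenous miRNAs with any count and a sequence, 5 (0.429%) held AUCCUU and 4 (0.343%) held AAGGAU. In miR-362-5p, miR-500b-5p and miR-501-5p these letters began at the same base, while the starts of miR-500a-5p and miR-502-5p were shifted against them. Among the 15 members with a sequence, only 2 seeds were shared: AUCCUUG by miR-362-5p and miR-500b-5p, and AUGCACC by miR-501-3p and miR-502-3p. The abundant 3p strand of hsa-mir-500a began 1 base further along, so its seed, UGCACCU, differed from that of miR-502-3p although 20 of 22 aligned bases (90.9%) were the same in the pair. No endogenous miRNA outside the cluster, among 1181 of the 1351 with any count that had a sequence (members included), carried the seed of any of these 15 members. The seed of miR-660-5p was not searched.

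The same likeness bears on the counts. A read that fits several hairpins was divided among them by the authors, and fractional counts appeared in 4 members: miR-500a-5p, miR-500a-3p, miR-500b-5p and miR-502-3p. The mature miR-500b-5p occurs in the hsa-mir-500a hairpin without a mismatch, and miR-500a-5p likewise occurs in hsa-mir-500b. The mature miR-500a-3p differs at 1 base from a stretch of the hsa-mir-502 hairpin, and miR-502-3p at 1 base from a stretch of hsa-mir-500a. The mature miR-501-3p likewise differs at 1 base from a stretch of hsa-mir-500a, and matches to the hsa-mir-501 hairpin were not searched, since its sequence was not analysed here. The split of counts among hsa-mir-500a, hsa-mir-500b and hsa-mir-502 is therefore uncertain, and that of hsa-mir-501 was not cleared by this search. The counts of hsa-mir-532, hsa-mir-188, hsa-mir-362, hsa-mir-501 and hsa-mir-660 were whole numbers in all 3 libraries.

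The libraries held 1636834 (control), 2892684 (miR-1) and 2577292 (miR-122) counts, of which 1636481, 1791702 and 1947669 were endogenous. The synthetic miR-1 hairpin had 1100938 counts in the miR-1 library, 166 in the control and 369 in the miR-122 library. The synthetic miR-122 hairpin had 629211 counts in the miR-122 library and 10 in each of the others. Each miRNA library thus carried the hairpin named in its label. A synthetic hairpin named i-2.2 had 127 counts in the control, whose label names no induced miRNA, and 0 in the other libraries, and the source of those counts was not tested. To keep the induced miRNAs out of the scale, counts were scaled by the trimmed mean of M-values (TMM) over endogenous miRNAs and are given as CPM (counts per 1e6 scaled counts), on which 1 count was worth 0.593, 0.556 and 0.531 CPM in the control, the miR-1 line and the miR-122 line.

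The first question was how much the hairpins of 1 host gene yield and how unequal they are. Together they gave 8180 counts in the control, 8768.5 in the miR-1 line and 10503 in the miR-122 line. That was 0.4999% (Wilson interval 0.489 to 0.511) of endogenous counts in the control, 0.489% (0.479 to 0.4997) in the miR-1 line and 0.539% (0.529 to 0.550) in the miR-122 line. The cluster was thus a minor part of the miRNA pool of these cells.

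Of the control's cluster counts, hsa-mir-532 alone gave 57.1% (4667 counts), more than the other 7 hairpins together. It was followed by hsa-mir-660 with 17.2% (1407 counts), hsa-mir-500a with 9.68% (791.5), hsa-mir-501 with 6.88% (563), hsa-mir-362 with 4.22% (345), hsa-mir-502 with 3.29% (269.5), hsa-mir-188 with 1.45% (119) and hsa-mir-500b with 0.220% (18). In the control each hairpin differed from the next in this order beyond counting error. The closest pair there was hsa-mir-362 and hsa-mir-502, at a ratio of 1.28 (1.09 to 1.504). Thus hsa-mir-532 and hsa-mir-188, the nearest neighbours in the cluster, stood at opposite ends of the order apart from hsa-mir-500b, and output neither rose nor fell steadily along the intron.

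**Figure D1:**
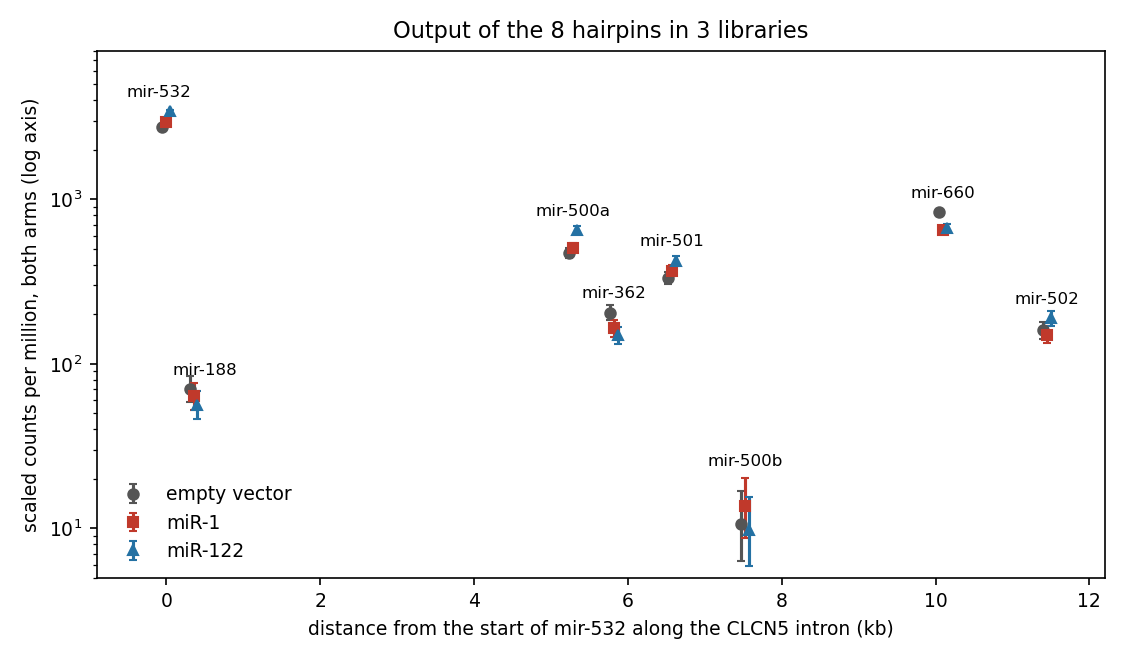
Scaled CPM of both arms of each hairpin (vertical, log axis) against the distance of its start from the start of hsa-mir-532 in kb (libraries shifted slightly sideways for clarity), in the empty vector control (grey circles), the miR-1 library (red squares) and the miR-122 library (blue triangles), with 1 library per group and bars that are 95% Poisson counting intervals. The symbols of the 3 libraries lie close together for each hairpin, while the hairpins spread from about 10.7 CPM (hsa-mir-500b) to 2768 CPM (hsa-mir-532) in the control.

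The order was nearly the same in the other libraries. In the miR-1 library hsa-mir-362 and hsa-mir-502 were not separated (ratio 1.09, 0.923 to 1.29), and all other neighbours kept the control's order beyond counting error. In the miR-122 library hsa-mir-660 and hsa-mir-500a were not separated (1266 against 1222 counts, ratio 1.04, 0.957 to 1.12). There hsa-mir-502 stood above hsa-mir-362 by 1.27 (1.08 to 1.49), the reverse of the control. From the highest hairpin to the lowest, counts differed 259-fold (164 to 438) in the control, 217-fold (144 to 329) in the miR-1 line and 349-fold (217 to 565) in the miR-122 line. Those spans rest on hsa-mir-500b, which had between 18 and 24.5 counts and shares reads with hsa-mir-500a. Without it the spans were 39.2, 46.6 and 60.9, now with hsa-mir-188 at the low end.

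For scale, 5 groups of at least 4 hairpins (neighbours at most 10 kb apart on 1 strand) had at least 4 hairpins at a mean count of 10 or more, this cluster included. In the control the span was 39.3-fold in the group that starts with hsa-mir-17, 1777-fold in its relative on the X chromosome that starts with hsa-mir-363, and 1.92-fold in the group that starts with hsa-mir-450b. The 5 hairpins of hsa-mir-941 had identical counts because their reads were divided evenly. The CLCN5 cluster lay within the range of these groups. Reads shared between hairpins also enter the spans of the hsa-mir-17 and hsa-mir-363 groups.

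The next question was which arm each hairpin supplied. In every library 4 hairpins gave more 5p than 3p counts (hsa-mir-532, hsa-mir-188, hsa-mir-362 and hsa-mir-660), and the other 4 gave more 3p counts (hsa-mir-500a, hsa-mir-501, hsa-mir-500b and hsa-mir-502). Over all 295 endogenous hairpins with at least 10 counts over both arms in each library, 57.3% gave more 5p in the control, 57.3% in the miR-1 line and 56.9% in the miR-122 line. The larger arm was the same in all 3 libraries for all 8 members, and it differed between libraries in 13 of the 295 hairpins (4.41%).

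The 4 hairpins with more 5p counts were strongly one-sided. The 5p share of hsa-mir-660 was 99.6% in the control (99.1 to 99.8), 99.6% in the miR-1 line (99.0 to 99.8) and 99.2% in the miR-122 line (98.6 to 99.6). For hsa-mir-532 it was 96.8% (96.2 to 97.3), 96.5% (96.0 to 97.0) and 97.6% (97.2 to 98.0). For hsa-mir-362 it was 97.1% (94.7 to 98.4), 95.6% (92.6 to 97.4) and 98.6% (96.4 to 99.4). The intervals of the 3 libraries overlapped for hsa-mir-660 and hsa-mir-362, and for hsa-mir-532 the miR-122 library lay above the miR-1 library. The 3p strand of hsa-mir-188 had 3 counts in the control, 2 in the miR-1 line and 0 in the miR-122 line. That count of 0 allows up to 3 counts, or 1.59 CPM.

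Among the hairpins with more 3p counts, the share of the minor strand ranged widely. The 5p strand of hsa-mir-501 made up 18.1% of its hairpin's counts in the control (15.2 to 21.5), 18.8% in the miR-1 line (15.97 to 21.9) and 19.0% in the miR-122 line (16.5 to 21.9). The 5p share of hsa-mir-500a was 7.08% (5.49 to 9.08), 5.69% (4.36 to 7.38) and 5.85% (4.67 to 7.31). That of hsa-mir-502 was 3.34% (1.77 to 6.22), 4.07% (2.29 to 7.13) and 3.37% (1.94 to 5.79). The control intervals of hsa-mir-501, hsa-mir-500a and hsa-mir-502 overlapped only between hsa-mir-500a and hsa-mir-502, even though the 3p strands of these 3 hairpins shared 90.9% of aligned bases in each pair. Those intervals do not cover reads assigned to the wrong hairpin, and the split of counts among these hairpins is uncertain or was not cleared. The larger arm of hsa-mir-500b was not clear at this depth, since its 5p share of 27.8% in the control had an interval from 12.5 to 50.9, and its intervals in the other libraries also held 50%.

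**Figure D2:**
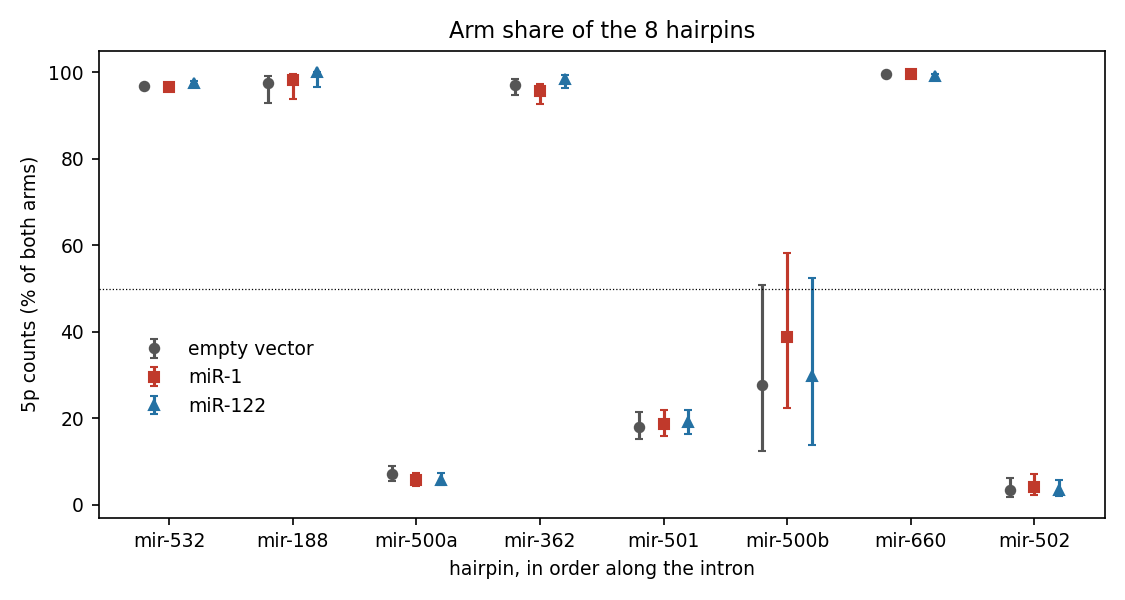
Percentage of 5p counts among both arms of each hairpin (vertical, linear axis), in the order of the hairpins along the intron, in the empty vector control, the miR-1 library and the miR-122 library (1 library each), with 95% Wilson intervals as bars and a dotted line at 50%. Hairpins hsa-mir-532, hsa-mir-188, hsa-mir-362 and hsa-mir-660 lie above 95% and hsa-mir-500a, hsa-mir-501 and hsa-mir-502 below 20% in each library, with hsa-mir-500b between them on 18 to 24.5 counts.

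Differences in arm share between libraries were small. Against the control, the Newcombe interval of the difference left out 0 for 0 of 8 hairpins in the miR-1 library (13.9% of all 295 hairpins) and for 1 of 8, hsa-mir-532, in the miR-122 library (20.3% of all). The 5p share of hsa-mir-532 was higher there by 0.844 percentage points (0.227 to 1.49). Between the miR-1 and miR-122 libraries the interval left out 0 for 2 of 8 (19.0% of all), hsa-mir-532 with -1.11 points (-1.74 to -0.499) and hsa-mir-362 with -2.97 points (-6.07 to -0.137). The 3p counts behind the hsa-mir-362 difference were 13 and 4. These shares of members called were near or below those of all hairpins.

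Argonaute proteins hold the 5′ base of the guide in a pocket, so the first base of the larger arm was also examined. None of the 7 hairpins with a sequence for the larger arm had a larger arm that began with U: it began with A in 4 (hsa-mir-500a, hsa-mir-362, hsa-mir-501 and hsa-mir-502), with C in 2 (hsa-mir-532 and hsa-mir-188) and with G in hsa-mir-500b. In hsa-mir-500a the smaller arm, miR-500a-5p, was the one that began with U. Among 240 other hairpins the larger arm began with U in 135 (56.25%), with A in 57 (23.75%) and with C in 32 (13.3%). A or U among the first 4 bases was also counted. The larger arm held more of them than the smaller arm in 3 of the 7 hairpins (42.9%) and fewer in 2. It held more in 112 of the 240 others (46.7%) and fewer in 59, so the 7 were near the others by this measure. The member counts are over related sequences, and the larger arm of hsa-mir-500b is uncertain. The hairpin left out was hsa-mir-660, which gave 17.2% of the control's cluster counts. Its larger arm had no sequence here, so its first base was not examined. That arm held 99.6% of the hairpin's control counts, so the first base of an abundant strand is missing from the comparison. The first bases of the 7 hairpins therefore do not describe the cluster as a whole, and no contrast with the other hairpins is drawn for it.

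The levels of the mature strands were then compared between libraries. Of the 16 members, 12 passed the filter of a mean count of at least 10, while miR-188-3p, miR-362-3p, miR-500b-5p and miR-660-3p did not. With 1 library per group, a limit of 2-fold took the place of a test, and both comparisons with the control use the same control library. Against the control, 0 of 12 members differed 2-fold or more in the miR-1 line (3.31% of all 514 endogenous miRNAs that passed the filter) and 0 of 12 in the miR-122 line (9.92% of all). Between the 2 miRNA lines it was also 0 of 12 (8.56% of all). At a limit of 1.5-fold the count stayed at 0 of 12 in each comparison, where 16.7% (miR-1 line against control), 26.7% (miR-122 line against control) and 23.0% (miR-1 line against miR-122 line) of all miRNAs passed. The ratios of the members were thus modest, from -0.36 to 0.21 on the log2 scale in the miR-1 line and from -0.43 to 0.49 in the miR-122 line. Their median was 0.10 in the miR-1 line and 0.22 in the miR-122 line, where the quartiles of all 514 miRNAs lay at -0.21 and 0.20, and at -0.37 and 0.33. Between the 2 miRNA lines it was -0.13, with quartiles of all miRNAs at -0.26 and 0.32.

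Counting error alone was smaller than some of these ratios. The counting interval left out a ratio of 1 for 3 of 12 members in the miR-1 library against control (34.4% of all miRNAs), for 7 of 12 in the miR-122 library (47.1% of all) and for 5 of 12 between the miR-1 and miR-122 libraries (39.3% of all). Relative to control, 1 was higher and 2 were lower in the miR-1 library, and 5 were higher and 2 were lower in the miR-122 library. Counting error is a lower bound on the spread between cultures, which was not measured.

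The most abundant member, miR-532-5p, had 4517 counts in the control, 5132 in the miR-1 line and 6302 in the miR-122 line, or 2679, 2853 and 3347 CPM. It ranked 55th, 52nd and 47th among endogenous miRNAs, well above any other member. Relative to control its ratio was 1.07 (1.02 to 1.11) in the miR-1 line and 1.25 (1.20 to 1.30) in the miR-122 line. Both turned below 1 (log2 -0.64 and -0.17) when the induced miRNA was left in the library total, where the medians of all endogenous miRNAs were -0.725 and -0.528. The miR-1 interval also held 1 by total endogenous counts (0.997 to 1.08). Its passenger strand miR-532-3p had 150, 185 and 153 counts, or 89.0, 103 and 81.3 CPM, and its intervals against the control held 1. Between the 2 miRNA lines the strands of this hairpin went opposite ways, miR-532-5p with a ratio of 0.852 (0.821 to 0.885) and miR-532-3p with 1.26 (1.02 to 1.58), miR-1 over miR-122.

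The other 4 strands whose counting interval lay above 1 in the miR-122 library came from hsa-mir-500a, hsa-mir-501 and hsa-mir-502. For miR-500a-3p the counts were 735.5, 862.5 and 1150.5 in the control, the miR-1 line and the miR-122 line, or 436, 480 and 611 CPM. Its ratio of 1.40 (1.28 to 1.54) in the miR-122 library was the furthest above 1 among the 12 members against control. For miR-501-3p the counts were 461, 537 and 646, or 273, 299 and 343 CPM, a ratio of 1.25 (1.11 to 1.42) in the miR-122 library. Its partner miR-501-5p had 102, 124 and 152 counts, a ratio of 1.33 (1.03 to 1.73) there. For miR-502-3p, whose assignment is uncertain, 260.5, 259.5 and 344.5 counts gave a ratio of 1.18 (1.01 to 1.40). All 4 ratios turned below 1 with the induced miRNA left in the library total (log2 -0.01, -0.17, -0.08 and -0.25), where the median of all endogenous miRNAs was -0.528. Scaling by total endogenous counts or by DESeq2 size factors kept them above 1. By total endogenous counts the intervals of miR-501-5p (0.968 to 1.63) and miR-502-3p (0.943 to 1.31) held 1, so that the counting calls of these strands depend on the scaling.

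The strands miR-660-5p and miR-362-5p were lower than the control in both libraries by TMM, by DESeq2 size factors and by total endogenous counts. With the induced miRNA left in the library total, every member that passed the filter was lower, so that scaling does not single out these strands. For miR-660-5p, the second most abundant member, there were 1401 counts in the control, 1166 in the miR-1 line and 1256 in the miR-122 line, or 831, 648 and 667 CPM. The ratio to control was 0.780 (0.721 to 0.844) in the miR-1 line and 0.803 (0.743 to 0.867) in the miR-122 line, and the miR-1 and miR-122 libraries did not differ beyond counting error (0.972, 0.896 to 1.05). For miR-362-5p the counts were 335, 283 and 277, or 199, 157 and 147 CPM, with ratios of 0.792 (0.674 to 0.931) and 0.741 (0.629 to 0.871). The major strand of hsa-mir-188, miR-188-5p, had 116, 112 and 106 counts, or 68.8, 62.3 and 56.3 CPM. It too was lower than the control in both libraries under each scaling, but its intervals against the control held 1. Since both ratios of each strand rest on 1 control library, a high value in that library alone gives a low ratio in both.

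**Figure D3:**
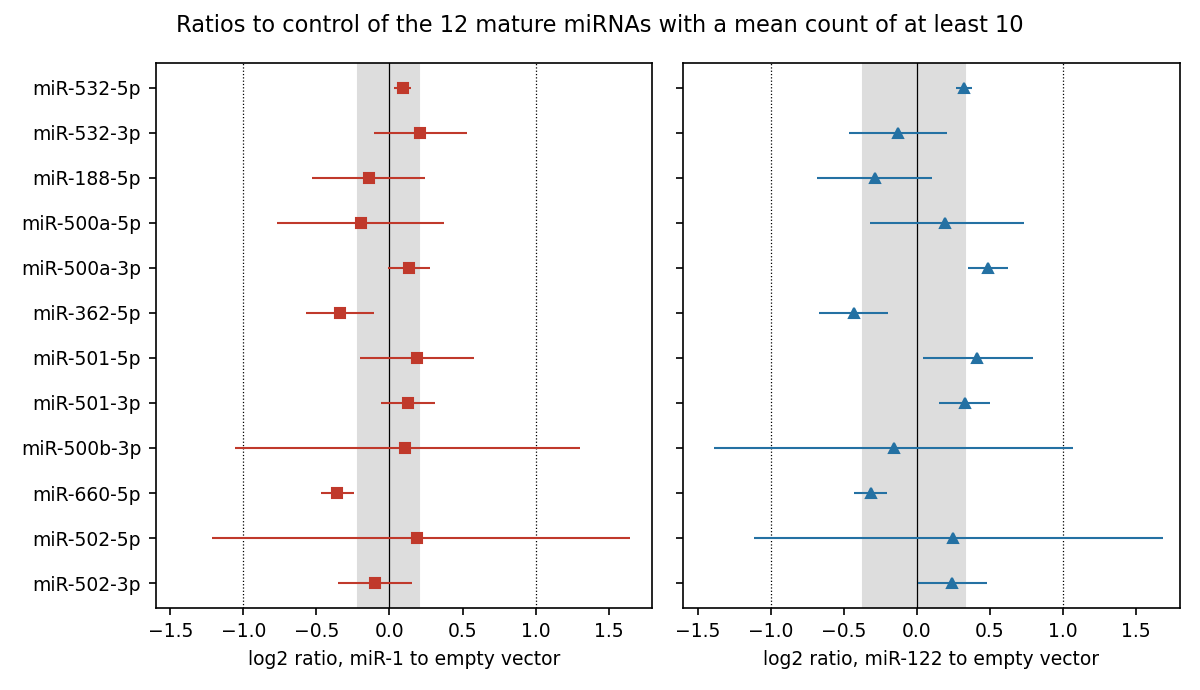
Log2 ratio to the empty vector control (horizontal, linear axis) of the 12 mature members with a mean count of at least 10, in the miR-1 library (left) and the miR-122 library (right), with lines for 95% counting intervals, a grey band for the interquartile range of all 514 endogenous miRNAs and dotted lines at 2-fold. Symbols of all 12 members lie inside the 2-fold lines, and miR-362-5p and miR-660-5p lie left of 0 in both panels.

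The remaining members were low. The counts of miR-500a-5p were 56, 52 and 71.5, and those of miR-500b-3p, miR-502-5p and the 4 strands below the filter lay between 0 and 15 in each library. Their intervals against the control held 1 and were wide, as for miR-502-5p in the miR-1 library, whose ratio of 1.14 had an interval from 0.432 to 3.13. A 2-fold difference was therefore not detectable at this depth for strands of about 10 counts.

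Because neighbouring hairpins may come from 1 transcript, their counts were also set against each other within a library, which needs no scaling between libraries. Per 100 counts of hsa-mir-532, hsa-mir-660 gave 30.1 in the control, 22.0 in the miR-1 line and 19.6 in the miR-122 line. Relative to the control this was 0.731 (0.669 to 0.798) in the miR-1 line and 0.651 (0.597 to 0.709) in the miR-122 line. It was 7.39, 5.57 and 4.35 for hsa-mir-362, or 0.753 (0.639 to 0.887) and 0.589 (0.499 to 0.695) of the control. For hsa-mir-188 it was 2.55, 2.14 and 1.64, of which the miR-122 value left out 1 (0.644, 0.490 to 0.846) and the miR-1 value did not (0.841, 0.643 to 1.10).

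Of the other 4 hairpins against control, hsa-mir-500a in the miR-122 line was the one whose interval left out 1. Per 100 counts of hsa-mir-532, hsa-mir-501 gave 12.1, 12.4 and 12.4 in the control, the miR-1 line and the miR-122 line, with intervals relative to control of 0.913 to 1.16 and 0.913 to 1.15. For hsa-mir-502 it was 5.77, 5.09 and 5.52, and for hsa-mir-500a 17.0, 17.2 and 18.9, the last with a relative value of 1.12 (1.01 to 1.23). For hsa-mir-500b, on 18 to 24.5 counts, the relative value was 1.19 (0.638 to 2.38) in the miR-1 line and 0.743 (0.379 to 1.54) in the miR-122 line. By counting error alone, hsa-mir-660 and hsa-mir-362 thus departed from hsa-mir-532 in both libraries, and hsa-mir-501 and hsa-mir-502 in neither. How often other pairs of hairpins depart in this way was not examined. Among single miRNAs, counting intervals against control left out 1 for 34.4% (miR-1 line) and 47.1% (miR-122 line). The reference moved too, since hsa-mir-532 itself was at 1.07 (1.03 to 1.11) and 1.24 (1.19 to 1.29) of the control. The hsa-mir-188 ratio to control in the miR-122 line held 1 on its own (0.798, 0.608 to 1.05). Between the miR-1 and miR-122 libraries, which leaves the control out, hsa-mir-660 relative to hsa-mir-532 was 1.12 (1.03 to 1.23) and hsa-mir-362 was 1.28 (1.08 to 1.52). There hsa-mir-500a was 0.909 (0.827 to 0.9987), and the intervals of hsa-mir-188, hsa-mir-501, hsa-mir-500b and hsa-mir-502 held 1.

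**Figure D4:**
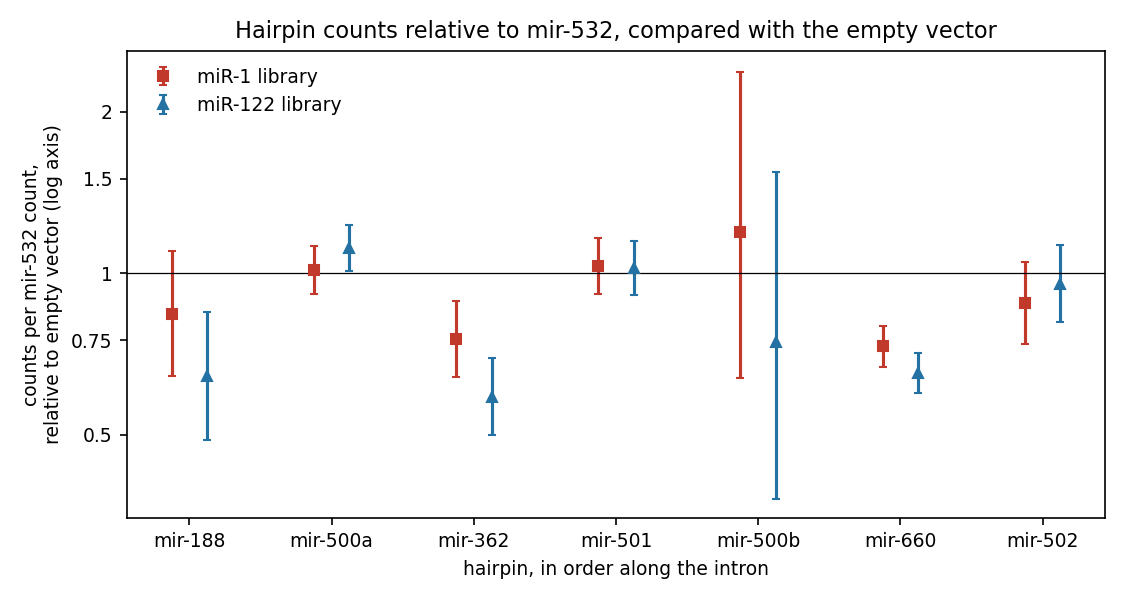
Counts of each hairpin per count of hsa-mir-532, divided by the same value in the empty vector control (vertical, log axis), in the order along the intron, in the miR-1 library (red squares) and the miR-122 library (blue triangles), with exact conditional 95% intervals for counting error and 1 library per group. Both libraries lie below 1 with their intervals for hsa-mir-362 and hsa-mir-660, and both intervals hold 1 for hsa-mir-501, hsa-mir-500b and hsa-mir-502.

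The same spread can be read from other clusters. Over the 7 CLCN5 hairpins with a mean count of at least 100, log2 ratios to control ranged over 0.50 in the miR-1 line and 0.92 in the miR-122 line. Over the 6 hairpins that start with hsa-mir-17 the range was 0.15 and 1.03, over 5 of the group that starts with hsa-mir-363 it was 0.49 and 0.96, and over the 6 that start with hsa-mir-450b it was 0.28 and 0.77. Between the 2 miRNA lines the range was 0.52 for the CLCN5 hairpins, and 1.10, 1.27 and 0.72 for the groups that start with hsa-mir-17, hsa-mir-363 and hsa-mir-450b. In the miR-1 line against control the CLCN5 range was thus nearly equal to that of the hsa-mir-363 group. The CLCN5 range was inside the others in the miR-122 line against control and the lowest between the miRNA lines. The groups differ in their number of hairpins and in depth, which both bear on a range, and none of these differences was tested.

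As a sum, the cluster was at 4851 CPM in the control, 4875 in the miR-1 line and 5579 in the miR-122 line. Its ratio to control was 1.00 (0.975 to 1.04) in the miR-1 line and 1.15 (1.12 to 1.18) in the miR-122 line. Both lay below 1 (log2 -0.721 and -0.29) with the induced miRNA left in the library total, where the medians of all endogenous miRNAs were -0.725 and -0.528. The sum follows hsa-mir-532, which made up more than 57% of it in each library. Among 254 endogenous miRNAs outside the cluster with a mean count of at least 100, those nearest to its pair of log2 ratios were miR-185-5p (distance 0.03), miR-423-3p (0.03) and miR-92a-3p (0.04). The likeness is over 3 libraries only, as a Euclidean distance between 2 log2 ratios, and miR-185-5p, for example, had 3489, 3693 and 4538 counts.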

How the data were processed

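Small RNA libraries of 3 Flp-In T-REx 293 lines, 1 per group, were analysed. As the authors describe, adapters were trimmed, reads under 18 nt were dropped, identical reads were collapsed with their multiplicity, and reads were counted with miRDeep2 on human hairpins of miRBase release 21 plus the synthetic hairpins. The deposited values are estimated counts, with a read that fits several hairpins divided among them. The deposited RPM values, scaled by the authors to the library total with the induced miRNA, matched those counts to within 0.00652 RPM. The submitters' processing notes name build hg19. A deposited pooled total, larger than the sum of the 3 libraries, was used only in the closing section.

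Counts were summed per mature miRNA, and miRNAs of the 5 synthetic hairpins were set apart. Of 1351 endogenous miRNAs with any count, 514 had a mean count of at least 10. These were scaled by TMM (edgeR 4.0.16, R 4.3.3), and log2 ratios used a pseudocount of 0.5 counts. Intervals (95%) were exact conditional (Clopper-Pearson) for ratios, on rounded counts, Wilson for shares and Newcombe for differences of shares, and cover counting error only (scipy 1.17.1). No test between groups was possible, so the fold limit replaced it, and scripts were tested on simulated counts. Hairpin positions came from GENCODE, and neighbours of other clusters from RefSeq, which placed 1790 of 1873 hairpins. The miRNAs named are the strands of the 8 hairpins, those sharing a member's seed, and the 3 nearest to the summed cluster in log2 ratios. Members and lists were chosen with earlier results of these data known. Alternatives covered scaling, filter, pseudocount, fold limit, denominator and shared hairpins.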

Additional observations from a re-analysis of the deposited data

How the results depend on the processing

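Of 258 recomputed values, 132 were added after the data were seen. Of the 258, 195 stayed within their limits, 56 moved, and 7 changed sign from a ratio whose counting interval left out 1. Other changes of sign are among the first 2 kinds. With the induced miRNA left in the library total, the members past 2-fold in the miR-1 library numbered 2, the median log2 ratios of members became -0.619 for the miR-1 line against control, -0.276 for the miR-122 line against control and -0.355 for the miR-1 line against the miR-122 line, and those of all endogenous miRNAs -0.725, -0.528 and -0.220. Every member that passed the filter, and the summed cluster, then lay below 0 against the control in both libraries. Of ratios whose counting interval left out 1, the sign changed for miR-532-5p (-0.64 in the miR-1 and -0.17 in the miR-122 library). In the miR-122 library it also changed for miR-500a-3p (-0.00948), miR-501-5p (-0.0792), miR-501-3p (-0.17), miR-502-3p (-0.25) and the summed cluster (-0.29). With no filter, 2 members passed 2-fold in the miR-122 line against control and 2 between the miRNA lines (miR-188-3p and miR-362-3p, at 0 and 4 counts in the miR-122 library), with medians of 0.0740 and -0.0271. Those 2 medians were 0.126 and -0.0755 by total endogenous count, and 0.264 and -0.184 at a mean count of at least 100. The median between the miRNA lines was -0.0571 without hsa-mir-500a and hsa-mir-500b, and -0.20 with hsa-mir-500a, hsa-mir-500b and hsa-mir-502 pooled by arm (added). The cluster share in the control, the miR-1 line and the miR-122 line was 0.581%, 0.565% and 0.625% with the highest hairpin of each miRNA only, and 0.450%, 0.437% and 0.476% without hsa-mir-500a and hsa-mir-500b. With all miRNA counts as denominator it was 0.303% (miR-1) and 0.408% (miR-122). The span was 39.2, 46.6 and 60.9 without the lowest hairpin, and the same without hsa-mir-500a and hsa-mir-500b, and 342 for the higher arm only in the miR-1 library. By total endogenous count, 2, 5 and 4 members had a counting interval that left out 1 (miR-1 line against control, miR-122 line against control, and between the miRNA lines), against 3, 7 and 5 by TMM. These moves follow from how each alternative was built. No paired analysis was possible because no group had a second library, and for the same reason no replicate could be left out.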

Other observations

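The deposited pooled total exceeded the sum of the 3 libraries, and the remainder held 1588772 endogenous counts. Which libraries make it up, and how they were treated, is not given in the sources used here, so it is not a control or a replicate of any group. The CLCN5 cluster made up 0.496% (Wilson interval 0.486 to 0.508) of that remainder. The same arm was the larger one in all 8 hairpins as in the 3 libraries, with 5p shares of 97.3% for hsa-mir-532, 99.1% for hsa-mir-660, 6.48% for hsa-mir-500a and 15.4% for hsa-mir-501. Per 100 counts of hsa-mir-532 the remainder gave 23.1 of hsa-mir-660 (21.6 to 24.6), where the control gave 30.1 (28.4 to 32.0), the miR-1 library 22.0 (20.7 to 23.5) and the miR-122 library 19.6 (18.5 to 20.8). For hsa-mir-362 it gave 4.93 (4.31 to 5.61), where the control gave 7.39 (6.61 to 8.25). For hsa-mir-188 it gave 1.38 (1.07 to 1.76), where the control gave 2.55 (2.11 to 3.06). For hsa-mir-502 it gave 5.19 (4.56 to 5.90), where the control gave 5.77 (5.10 to 6.54). The control was thus the highest of the 4 values for hsa-mir-660, hsa-mir-362, hsa-mir-188 and hsa-mir-502, with intervals that overlapped the remainder for hsa-mir-502. It was not the highest for hsa-mir-500a (17.0), hsa-mir-501 (12.1) or hsa-mir-500b (0.386). The miR-122 library gave 18.9 for hsa-mir-500a, and the miR-1 library gave 12.4 for hsa-mir-501 and 0.461 for hsa-mir-500b. Their intervals overlapped those of the control. The source of these differences was not tested.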
